A study of Mus musculus with 22 samples.

Results

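The mouse Hox genes of paralog groups 9 and 10 were described by their chromatin at the transcription start site. They are Hoxa9, Hoxb9, Hoxc9, Hoxd9, Hoxa10, Hoxc10 and Hoxd10. They were taken by name from a table of 24467 start-site windows, each 5000 bp long and centred on 1 annotated start per gene, and all 7 were found. CUT&RUN, in which an antibody tethers a nuclease that cuts out the DNA around its target, had been applied to neural progenitor cells (NPC) and to the mouse embryonic stem cells (ESC) from which they were made. For NPC, bFGF (10 ng/mL) was given over 72 h, followed by 48 h in SAG (500 nM), a Hedgehog pathway agonist. ESC were kept in N2B27 medium with LIF (100 U/mL), CHIR99021 (3 µM) and PD0325901 (1 µM). Both cell types are of the C57BL/6 strain, and the labels give their genotype as untagged, Tir1, and their treatment as untreated. Each of 5 antibodies (SUZ12, JARID2, MTF2, H3K27me3 and H3K4me3) had 2 libraries per cell type, described as biological replicates, and IgG, a control antibody without a chromatin target, had 1 per cell type. The p-values of changes rest on the spread between the 2 libraries of each group, which the model shares in part over all windows tested. A small p-value thus does not measure the spread at that gene alone. For IgG, with 1 library per cell type, the spread was taken from the other groups in a joint fit.

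Hox genes encode transcription factors that lie in 4 clusters, HoxA to HoxD, and are switched on in the order of their position, so that each paralog group marks a level of the body axis. Group 9 is used at thoracic levels, where Hoxc9 sets the fate of thoracic motor neurons, and group 10 at lumbar levels, where it suppresses ribs and, through Hoxc10 and Hoxd10, patterns hindlimb motor neurons. Where Hox genes are silent they are held by Polycomb repressive complex PRC2, whose core subunit SUZ12 was profiled, together with the accessory subunits JARID2 (of the form PRC2.2) and MTF2 (of the form PRC2.1). PRC2 places the mark H3K27me3, and H3K4me3 is found at active and poised start sites. MTF2 binds DNA rich in unmethylated CpG, and stretches dense in CpG attract PRC2.

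For this reason the 250 bases before the start are shown for the 4 genes that matched RefSeq's promoter table (GRCm38.p6, the same assembly as the mm10 of the windows). Each reads 5′ to 3′ on the gene's own strand, and capitals mark every CG.
Hoxa9 (chr6:52227371-52227620, minus strand): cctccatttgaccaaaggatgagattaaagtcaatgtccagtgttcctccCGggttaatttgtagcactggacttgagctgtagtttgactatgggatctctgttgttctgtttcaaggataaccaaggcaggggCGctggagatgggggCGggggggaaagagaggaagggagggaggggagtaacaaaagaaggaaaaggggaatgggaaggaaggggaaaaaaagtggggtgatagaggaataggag
Hoxd9 (chr2:74697513-74697762, plus strand): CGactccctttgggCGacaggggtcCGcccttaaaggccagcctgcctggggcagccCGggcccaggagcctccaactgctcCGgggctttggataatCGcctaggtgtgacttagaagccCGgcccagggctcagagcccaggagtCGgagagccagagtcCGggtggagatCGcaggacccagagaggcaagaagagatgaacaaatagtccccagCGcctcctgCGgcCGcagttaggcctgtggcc
Hoxa10 (chr6:52234940-52235189, minus strand): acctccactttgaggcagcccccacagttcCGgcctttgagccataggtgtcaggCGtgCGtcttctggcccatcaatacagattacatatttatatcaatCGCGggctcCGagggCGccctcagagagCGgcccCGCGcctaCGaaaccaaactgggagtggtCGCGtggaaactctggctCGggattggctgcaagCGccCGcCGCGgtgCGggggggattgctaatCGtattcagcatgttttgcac
Hoxd10 (chr2:74691641-74691890, plus strand): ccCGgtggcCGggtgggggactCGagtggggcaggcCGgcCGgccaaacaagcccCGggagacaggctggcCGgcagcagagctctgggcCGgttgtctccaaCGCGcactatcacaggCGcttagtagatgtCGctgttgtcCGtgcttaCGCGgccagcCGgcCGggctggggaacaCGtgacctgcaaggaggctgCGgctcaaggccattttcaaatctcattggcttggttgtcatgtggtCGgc
The Hoxa9 stretch holds 3 CG, and 71% of the 32851 promoters in that table hold at least as many. The Hoxd9 stretch holds 13 (31.5% of promoters hold at least as many), and the Hoxa10 and Hoxd10 stretches hold 20 each (17.9%). The median promoter holds 6. These stretches cover a small share of each 5000 bp window, and Hoxb9, Hoxc9 and Hoxc10 are named only.

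No window of the 7 genes overlapped that of another of them. On chromosome 6, the Hoxa9 window spans 52224871 to 52229870 and the Hoxa10 window 52232440 to 52237439, both for genes on the minus strand. The Hoxa10 window centres on the start nearer to Hoxa9, at 52234939. The annotated gene begins at 52240854. Hoxb9 lies on chromosome 11 (96268830 to 96273829), Hoxc10 and Hoxc9 on chromosome 15 (102964296 to 102969295 and 102974532 to 102979531), and Hoxd10 and Hoxd9 on chromosome 2 (74689391 to 74694390 and 74695263 to 74700262), all on the plus strand. HoxA, HoxB and HoxC each carry a microRNA gene of the miR-196 family near these windows, a family known to cleave Hoxb8 mRNA. The Mir196b window shared 2205 bp with that of Hoxa9 and 226 bp with that of Hoxa10, and the Mir196a-2 window shared 1318 bp with that of Hoxc9, so their counts are in part the same reads. The Mir196a-1 start lies 6166 bp from that of Hoxb9 without overlap. The mature sequences are shown because the family is defined by its seed, bases 2 to 8, in capitals.
miR-196a-5p (from Mir196a-1 and Mir196a-2): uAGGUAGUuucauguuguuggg
miR-196b-5p (from Mir196b): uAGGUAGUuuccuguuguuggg
The seed AGGUAGU was the same in both, and over their 22 bases they differed at 1 position, A12C, counted from the 5′ end of miR-196a-5p.

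Levels are given in CPM, counts per 1000000 counts of a library over all windows. Since all windows have 1 length, CPM can be compared between genes. Total counts were 339591 to 1569812 for the libraries of the 3 PRC2 subunits and H3K27me3, 3264267 to 8425292 for H3K4me3, and 667898 (NPC) and 298458 (ESC) for IgG. CPM is a share of a library, so a change common to all windows was not measured. Drosophila DNA had been added as a spike-in but its counts were not used here. Windows in the top 1% by level held 4.94% and 5.05% of the counts in NPC SUZ12 libraries, against 10.52% and 9.24% in ESC. For H3K27me3 they held 11.04% and 19.6% in NPC, against 7.20% and 6.64% in ESC. For MTF2 they held 3.05% and 7.02% in NPC, against 10.54% and 8.44% in ESC. How much each library's enrichment adds to the changes given here was not tested, and fewer cells with a mark cannot be told apart from less of it per cell. The names of the cells were checked in H3K4me3. Of 10 neural progenitor genes 10 rose, with a summed level of 1513 and 1529 CPM in NPC against 451 and 419 CPM in ESC. Of 10 naive pluripotency genes 9 fell, with 285 and 290 CPM in NPC against 1759 and 1842 CPM in ESC.

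At the start sites of groups 9 and 10, H3K4me3 was lower in NPC than in ESC at all 7 genes (29.2% of windows tested fell). SUZ12 was lower at 6 (13.1%) and JARID2 at 3 (0.75%). H3K4me3 was already low in ESC, at 0.228 to 1.25 times IgG. There 0 of the 7 genes had at least 2 times IgG in both libraries, as 18.5% of windows did. H3K27me3 was higher in every NPC library than in any ESC library, but with 2 NPC libraries that differed widely. MTF2 could not be separated between the cell types.

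H3K4me3 fell at all 7 genes. Hoxb9, needed with its paralogs for the ribs of the chest, had 15.6 and 17.8 CPM in NPC libraries, against 66.8 and 60.8 CPM in ESC libraries. Hoxd9, which acts in the limb and the trunk skeleton, had 14.1 and 17.0 CPM in NPC, against 51.7 and 45.8 CPM in ESC. These were the highest H3K4me3 levels among the 7 genes in both cell types, and in neither gene did the cell types overlap. Hoxa10, a gene of the lumbar vertebrae and the uterus, had 7.05 and 8.43 CPM in NPC, against 37.2 and 35.3 CPM in ESC. Hoxa9, also a regulator of blood stem cells, had 7.66 and 6.53 CPM in NPC, against 32.4 and 28.7 CPM in ESC. The neighbours Hoxa9 and Hoxa10 showed the largest declines of the 7 genes, with log2 changes of -2.18 ± 0.19 and -2.20 ± 0.17 (SE). Hoxd10 had 7.66 and 8.31 CPM in NPC, against 27.1 and 26.0 CPM in ESC. Hoxc9 had 10.1 and 7.12 CPM in NPC, against 28.3 and 20.7 CPM in ESC. Hoxc10 had the lowest level in both cell types, with 6.74 and 4.99 CPM in NPC, against 15.03 and 12.98 CPM in ESC.

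Tested with edgeR's quasi-likelihood model over the 4 libraries of the antibody, with TMM scaling and Benjamini-Hochberg adjustment over all windows (threshold 0.05), the 7 H3K4me3 changes ran from -2.20 to -1.37 on the log2 scale. Their adjusted p ran from 4.32e-58 at Hoxb9 to 2.52e-06 at Hoxc10. Of 19776 windows tested, 29.2% fell and 26.7% rose, and both NPC libraries lay below both ESC libraries in 37.6%. The median change was -1.73 over the 7 genes and -0.02 over all windows tested. All 7 genes passed under every setting tried for the change except 1 fit over all libraries, where 5 did. In rank, the ESC level of Hoxb9 exceeded 74.3% of all windows and that of Hoxc10 41.6%, while in NPC the 7 genes exceeded 38.3% to 46.2%.

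**Figure D1:**
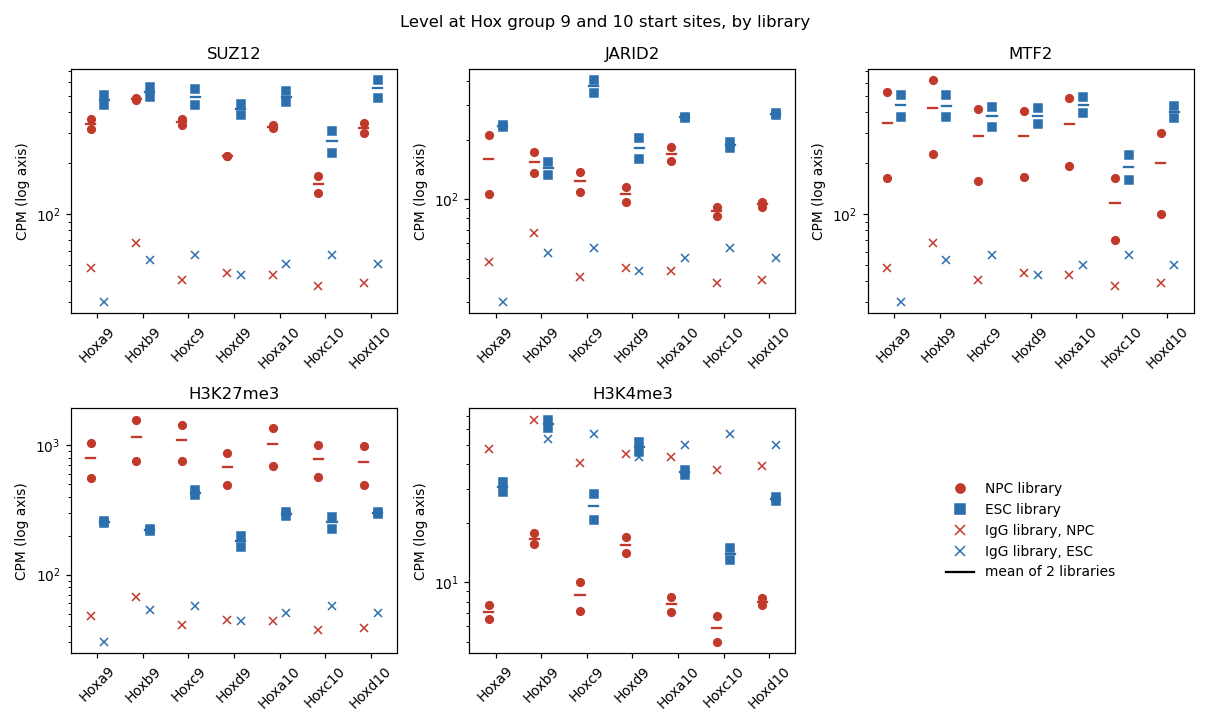
Level of each antibody at the 7 start-site windows in CPM on log axes, 1 panel per antibody, with each gene's NPC libraries (red circles) left of its ESC libraries (blue squares), a line at the mean of 2 libraries, and crosses for the IgG library of each cell type. H3K4me3 is lower in NPC at all 7 genes, H3K27me3 is higher in NPC at all 7, and the 2 NPC libraries of MTF2 and of H3K27me3 lie far apart.

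SUZ12 fell at 6 of the 7 genes, all but Hoxb9. Hoxd9 had 221 and 221 CPM in NPC, against 447 and 381 CPM in ESC. Hoxc10, the least occupied of the 7, had 133 and 167 CPM in NPC, against 308 and 230 CPM in ESC. Hoxd10 had 346 and 301 CPM in NPC, against 620 and 483 CPM in ESC, where it was the most occupied. The cell types did not overlap at these 3 genes, which had the largest declines. The log2 changes were -1.17 ± 0.21 at Hoxd9 (adjusted p = 1.29e-06 by edgeR's quasi-likelihood test), -1.11 ± 0.22 at Hoxc10 (6.01e-06) and -1.03 ± 0.21 at Hoxd10 (2.46e-05). Hoxa10 (-0.85 ± 0.21, adjusted p = 0.000775), Hoxc9 (-0.76 ± 0.21, 0.00308) and Hoxa9 (-0.74 ± 0.21, 0.0045) passed with smaller changes. Hoxb9 had 472 and 486 CPM in NPC, against 562 and 490.5 CPM in ESC, a change of -0.39 ± 0.21 (adjusted p = 0.219). It held the highest SUZ12 level of the 7 genes in NPC, the second highest of all windows there, and ranked 39th in ESC. The genes that fell also ranked high among all windows in NPC: Hoxc9 12th (54th in ESC), Hoxa9 18th (65th) and Hoxa10 23rd (52nd). Hoxd10 ranked 27th (25th in ESC), Hoxd9 72nd (90th) and Hoxc10 173rd (246th).

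Among 21238 windows tested for SUZ12, 13.1% fell and 2.97% rose. Both NPC libraries lay below both ESC libraries at all 7 genes and in 17.6% of windows. The median change was -0.85 over the 7 genes and 0.07 over all windows. Scaling by library totals moved the median of all windows to 0.32, and 6 genes passed, with changes of -0.49 to -0.91. Of all windows, 2031 of 21238 fell in that fit. The 6 calls were lost, and Hoxb9 changed direction (0.44, adjusted p = 0.0141), when the fit and its scaling were limited to the 3696 windows with a minimum count of 30. No gene passed in 1 fit over all libraries, where 1506 of 23836 windows fell. Leaving out NPC replicate 1 gave 3 calls, and leaving out NPC replicate 2 gave 2. The 2 NPC SUZ12 libraries differed little, with a chi-square per degree of freedom of 1.025 over all windows and 0.763 over the 7 genes, and summed to 1 library they gave 3 genes that fell: Hoxd9, Hoxc10 and Hoxd10.

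JARID2 fell at Hoxc9, Hoxd10 and Hoxc10. Hoxc9 had 138 and 109 CPM in NPC, against 347 and 404 CPM in ESC, where only 3 windows of the whole table had a higher mean. Hoxd10 had 97.5 and 91.3 CPM in NPC, against 267 and 274 CPM in ESC. Hoxc10 had 91.4 and 82.5 CPM in NPC, against 196.25 and 183 CPM in ESC. At each of these genes the cell types lay well apart, and the log2 changes were -1.61 ± 0.20 (adjusted p = 6.46e-09 by edgeR's quasi-likelihood test), -1.53 ± 0.22 (1.74e-07) and -1.14 ± 0.23 (0.000595). Hoxd9 had 116 and 97.2 CPM in NPC, against 161 and 205 CPM in ESC (-0.79 ± 0.22, adjusted p = 0.0623). Hoxa10 had 185 and 156 CPM in NPC, against 262 and 259 CPM in ESC (-0.62 ± 0.20, 0.152). The cell types did not overlap at either gene, but neither change passed the test.

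Hoxa9 had 213 and 106 CPM of JARID2 in NPC, against 239 and 233 CPM in ESC (-0.52 ± 0.21, adjusted p = 0.359), with NPC replicate 2 far below replicate 1. Without NPC replicate 1 its change was -1.19 and passed (adjusted p = 0.00117 by edgeR's quasi-likelihood test), and without NPC replicate 2 it was -0.16 (0.887). Hoxb9 had 175 and 135 CPM in NPC, against 133 and 155 CPM in ESC (0.11 ± 0.22, 0.935), and only at this gene did the cell types overlap. Of 21456 windows tested for JARID2, 0.75% fell and 0.0792% rose. Both NPC libraries lay below both ESC libraries at 6 of the 7 genes and in 17.5% of windows. The 2 NPC JARID2 libraries agreed within sampling noise over all windows (chi-square of 0.998 per degree of freedom) but not over the 7 genes (2.68), and they were counted as 2 samples. The 2 ESC JARID2 libraries had 1.023 over all windows and 0.683 over the 7 genes. Summing the NPC libraries gave 5 genes that fell, summing the ESC libraries gave 3, and 1 fit over all libraries gave 0. Leaving out 1 library gave 2 genes without either ESC library, and 4, with Hoxa9 added, without NPC replicate 1.

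MTF2 passed at none of the 7 genes. Hoxd10, where the decline was largest, had 100.1 and 302 CPM in NPC, against 435 and 372 CPM in ESC (-1.26 ± 1.01, adjusted p = 0.421 by edgeR's quasi-likelihood test). Its change was -0.62 without NPC replicate 1 and -2.36 without NPC replicate 2, and passed in neither fit. Hoxb9 had 225 and 625 CPM in NPC, against 504 and 374 CPM in ESC (-0.31 ± 1.27, 0.895). At every gene, NPC replicate 2 had 2.302 to 3.21 times the level of NPC replicate 1. Replicate 2 lay above at least 1 ESC library at 6 genes, and above both at Hoxa9 and Hoxb9. Only at Hoxd10 did both NPC libraries lie below both ESC libraries, which held in 18.8% of windows. The 7 changes ran from -1.26 to -0.31, with standard errors of 0.61 to 1.27 and 0 genes at an unadjusted p under 0.05. DESeq2 also called 0. Among 20885 windows tested, 8.89% fell and 3.28% rose.

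H3K27me3, the product of PRC2, stood higher in NPC at all 7 genes without passing edgeR's test. Hoxb9 had 758 and 1586 CPM in NPC, against 226 and 216 CPM in ESC. Hoxd9 had 495 and 878 CPM in NPC, against 199 and 164 CPM in ESC. Hoxc9 had 764 and 1438 CPM in NPC, against 451 and 412 CPM in ESC. At each gene the lower NPC library exceeded the higher ESC library, while the NPC libraries differed from each other by a factor of 1.77 to 2.09. Hoxa10 had 696 and 1373 CPM in NPC, against 307 and 283 CPM in ESC. Hoxa9 had 557 and 1050.4 CPM in NPC, against 251 and 259 CPM in ESC. Hoxc10 had 567 and 1016 CPM in NPC, against 281 and 227 CPM in ESC. Hoxd10 had 497 and 987 CPM in NPC, against 306 and 296 CPM in ESC, and so the smallest ratio of mean levels, 2.46, where Hoxb9 had the largest, 5.30.

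The log2 changes in H3K27me3 were 2.74 ± 1.59 at Hoxb9 (adjusted p = 0.145 by edgeR's quasi-likelihood test), 2.23 ± 1.22 at Hoxd9 (0.121) and 2.14 ± 1.504 at Hoxa10 (0.235), and 1.63 to 1.98 at the other 4 genes (0.212 to 0.385). No gene reached an unadjusted p of 0.05 in this fit. Its TMM factors, 1.17 for NPC replicate 1 and 0.748 for NPC replicate 2, set these libraries further apart than CPM does. Both NPC libraries lay above both ESC libraries in 28.8% of the 21863 windows, and 22.9% of windows passed as higher in NPC. The median change was 1.98 over the 7 genes and 0.12 over all windows. DESeq2 called all 7 higher (1.57 to 2.68, adjusted p = 0.000115 to 0.0233), as did a minimum count of 30 and 1 fit over all libraries, and scaling by library totals called 5. Of all windows, 1087 of 21863 rose with DESeq2 and 1676 of 21863 with library totals. At a minimum count of 30 it was 2609 of 9329, and in 1 fit over all libraries 8054 of 23836. Without NPC replicate 1 all 7 passed, with changes of 2.23 to 3.36, and without NPC replicate 2 all but Hoxc9 and Hoxd10 passed, with changes of 0.47 to 1.52 over the 7 genes.

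**Figure D2:**
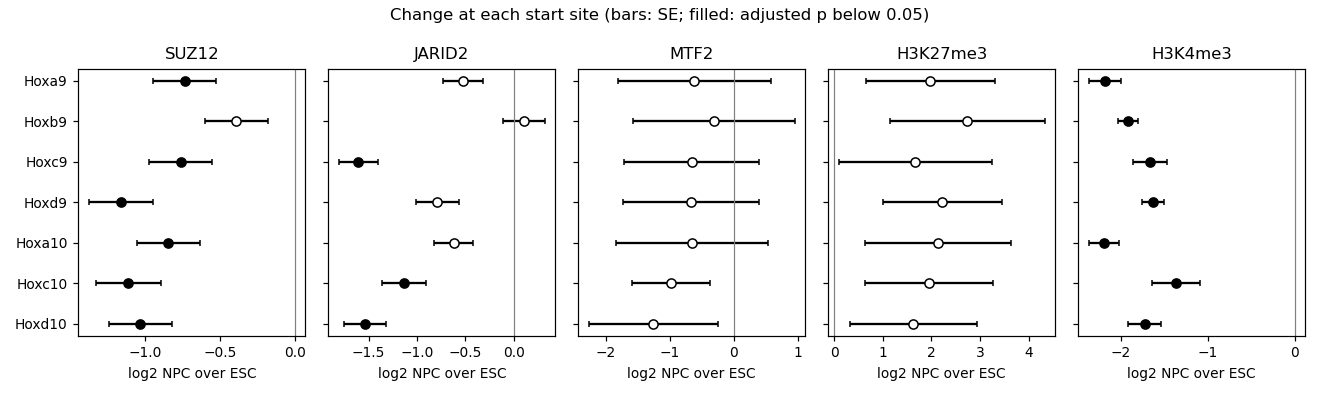
Log2 change of each antibody at the 7 genes, NPC over ESC, from edgeR's quasi-likelihood fit with TMM scaling. Bars are standard errors and filled points have an adjusted p below 0.05. H3K4me3 passes at 7 genes, SUZ12 at 6 and JARID2 at 3, and the bars of MTF2 and H3K27me3 are several times wider.

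SUZ12 and H3K27me3 stood on opposite sides of ESC in NPC, and that difference was tested itself as an interaction over 8 libraries. The H3K27me3 change minus the SUZ12 change was 3.39 ± 1.11 at Hoxd9 (adjusted p = 0.0131 by edgeR's quasi-likelihood test) and 3.05 ± 1.13 at Hoxc10 (0.0275). It was 2.44 to 3.14 at the other 5 genes, which did not pass. Of 23478 windows 16.7% passed in this direction, and the median was 2.99 over the 7 genes and 0.29 over all windows. The count is sensitive to the libraries: 7 genes passed without either NPC H3K27me3 library in turn, and 0 without any 1 of the other 6 libraries. The JARID2 change minus the MTF2 change, which sets PRC2.2 against PRC2.1, ran from -0.90 to 0.46 and passed at 0 of the 7 genes, with 0 at an unadjusted p under 0.05. Of 22654 windows, 2.78% passed as positive and 0.662% as negative.

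Within each cell type the level was set against IgG, whose 7 windows had 37.4 to 67.4 CPM in NPC and 30.2 to 57.0 CPM in ESC. SUZ12 was 3.56 to 8.93 times IgG in the NPC libraries (median 7.30) and 4.03 to 16.7 times in the ESC libraries (median 9.58). JARID2 was 2.01 to 4.45 times IgG in NPC (median 2.54) and 2.49 to 7.93 times in ESC (median 5.18). MTF2 was 1.88 to 11.2 times IgG in NPC (median 4.40) and 2.79 to 16.7 times in ESC (median 7.90). All 3 subunits therefore stood above IgG in every library of both cell types. H3K27me3 was 11.03 to 35.6 times IgG in NPC (median 19.2) and 3.76 to 8.60 times in ESC (median 5.76). H3K4me3 was 0.133 to 0.378 times IgG in NPC (median 0.195) and 0.228 to 1.25 times in ESC (median 0.722). Over all windows, the median was 23.5 CPM of H3K4me3 against 41.9 CPM of IgG in NPC, and 25.4 against 40.2 CPM in ESC. A ratio below 1 thus does not by itself show that the mark is absent. In ESC only Hoxb9 and Hoxd9 had H3K4me3 above IgG in both libraries, with 1.25 and 1.13 times at Hoxb9.

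At least 2 times IgG in both libraries was met at all 7 genes for SUZ12 in NPC, where 1.77% of windows met it, and in ESC, where 7.27% did. It was met at all 7 for JARID2 in NPC (0.587% of windows) and in ESC (2.85%). For MTF2 it was met at 6 genes in NPC (1.23%), all but Hoxc10, and at 7 in ESC (8.24%). For H3K27me3 it was met at 7 in NPC (7.81%) and in ESC (13%), and for H3K4me3 at 0 in NPC (15.8%) and in ESC (18.5%). In a joint edgeR fit of all 22 libraries, a call needed an adjusted p under 0.05 and a log2 fold of at least 1. Libraries were scaled by TMM in that fit, so its folds and threshold are not on the scale of the CPM ratios. H3K27me3 was above IgG at all 7 genes in NPC (log2 5.02 to 5.86, against 15.1% of windows) and in ESC (2.65 to 3.68, 22.5%). SUZ12 was called at 7 genes in ESC (5.67%) and 0 in NPC, where no window of 23836 was called but all 7 genes had an unadjusted p under 0.05. MTF2 was called at 6 genes in ESC (9.1%), all but Hoxc10, and JARID2 at 0 in both. H3K4me3 was called at 0, against 38.9% of windows in NPC and 36% in ESC, so that no gene of the 7 was called for both marks, as 4.05% of windows were in NPC and 2.29% in ESC. These calls rest on 1 IgG library per cell type and shift with the libraries in the fit: with each antibody and IgG alone, SUZ12 had 7 in NPC (1.56% of windows) and 7 in ESC (11.2%), and JARID2 5 in NPC (0.179%) and 7 in ESC (0.819%). MTF2 then had 0 in NPC (0.00429%) and in ESC (8.22%), H3K27me3 0 in NPC (1.58%) and in ESC (11.2%), and H3K4me3 0 in NPC (34.7%) and 1 in ESC (36.1%).

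**Figure D3:**
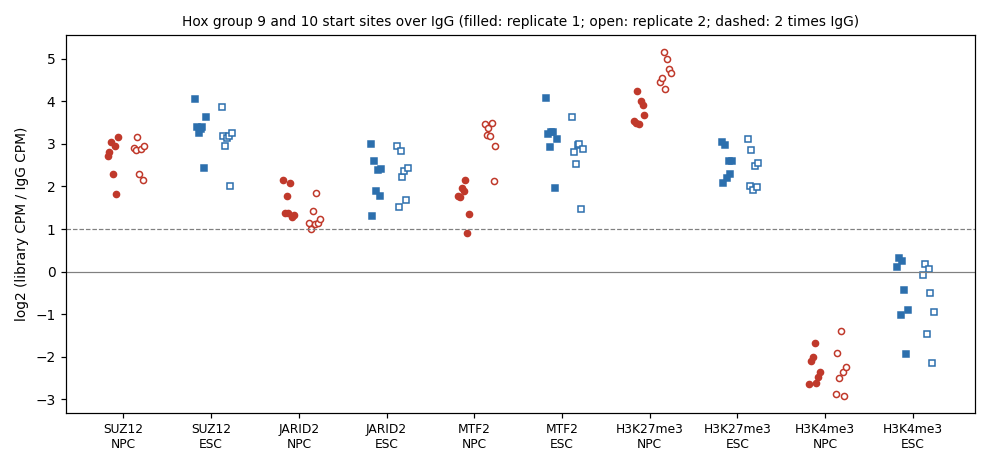
Ratio of each library to the IgG library of the same cell type, as log2 of CPM over CPM, for the 7 genes (points), with NPC (red) left of ESC (blue) for each antibody, replicate 1 filled and replicate 2 open, and a dashed line at 2 times IgG. H3K27me3 in NPC has the highest ratios, and all H3K4me3 points of NPC lie below IgG.

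The order of the 7 genes differed between antibodies. For H3K27me3 in NPC the means ran from 1172 ± 586 CPM at Hoxb9 (SD, n = 2), over Hoxc9, Hoxa10, Hoxa9, Hoxc10 and Hoxd10, to 687 ± 270 CPM at Hoxd9. Spreads of neighbours in this order overlapped. They hold the gap between the 2 NPC libraries, 1.77 to 2.09 times at each gene, so they do not test genes against each other. Hoxa10 exceeded Hoxa9 in both libraries. In ESC Hoxc9 led with 431 ± 27.02 CPM, clear of Hoxd10 (301 ± 6.39) and Hoxa10 (295 ± 16.9), which did not differ beyond their spread. Hoxa9 (255 ± 6.22) and Hoxc10 (254 ± 37.9) came next, with Hoxc10 overlapping Hoxb9 (221 ± 6.78), and Hoxd9 was last (181 ± 24.9). By mean level, Hoxb9 thus stood second from last of the 7 in ESC and first in NPC, though Hoxc9 exceeded it in NPC replicate 1. For SUZ12 in NPC the order was Hoxb9 (479 ± 9.66 CPM), Hoxc9 (347 ± 20.1), Hoxa9 (338 ± 32.2), Hoxa10 (328 ± 9.83), Hoxd10 (323 ± 31.6), Hoxd9 (221 ± 0.305) and Hoxc10 (150 ± 24.1). Hoxb9 lay clear above, Hoxd9 and Hoxc10 lay clear below, and the 4 between them did not differ beyond their spread. In ESC the means of Hoxd10, Hoxb9, Hoxa10, Hoxc9, Hoxa9 and Hoxd9 lay between 552 ± 97.0 and 414 ± 46.1 CPM, with spreads that overlapped between neighbours in this order, and Hoxc10 stood below them at 269 ± 55.4 CPM.

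JARID2 in NPC was led by Hoxa10 (170 ± 20.3 CPM), Hoxa9 (160 ± 75.8) and Hoxb9 (155 ± 27.7), and in ESC by Hoxc9 (376 ± 40.4), with Hoxb9 last (144 ± 15.05). MTF2 had its lowest level at Hoxc10 in both cell types, 116 ± 65.0 CPM in NPC and 191 ± 45.8 CPM in ESC. The other 6 genes had 379 to 445 CPM of MTF2 in ESC, with spreads that overlapped, and Hoxa9, with the fewest CG of the 4 promoters shown, had 440 ± 91.1 CPM there. For JARID2 the 7 genes ranked between 5th and 243rd of all windows in NPC and between 4th and 125th in ESC. Against all windows, the 7 genes ranked between 2nd and 67th for H3K27me3 in NPC and between 8th and 689th in ESC. Together they held 0.433% and 0.833% of the H3K27me3 counts in NPC, against 0.202% and 0.186% in ESC.

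Across the 10 combinations of antibody and cell type, with IgG left out, the 7 genes had much the same profile. Pearson's r between pairs of genes ran from 0.922 (Hoxb9 with Hoxc10) to 0.998 (Hoxa9 with Hoxa10). These points share libraries and depth. H3K4me3 and H3K27me3 in NPC, the lowest and the highest relative to the median of all windows, weigh most. Hoxb9 lay farthest from the mean profile of the 7 genes (r = 0.968). The 5 other windows of 11909 most like that mean were Hoxa11os (0.998), Hoxa13 (0.997), Hoxa11 (0.996), Hoxc12 (0.996) and Hoxd13 (0.995), all of the posterior ends of Hox clusters, and 16 of the 50 most alike were Hox genes. Hoxa11os and Hoxa11 start 10303 and 10871 bp from Hoxa10, so their 5000 bp windows overlap and share reads.

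Other windows within 10000 bp of these 7 numbered 14. SUZ12 fell at 12 of them (13.1% of all windows tested), JARID2 at 10 (0.75%) and H3K4me3 at 11 (29.2%). Of the 14, 1, Mir196a-1, rose in SUZ12 (2.97% of windows), MTF2 (3.28%) and H3K27me3 (22.9%). The 14 are not separate sites. Hoxa11 overlaps Hoxa11os, Mira overlaps Hoxa7 and Hoxa3, and Mir196b and Mir196a-2 overlap windows of the 7 genes. Mir196b, which shares reads with Hoxa9, had 8.27 and 5.93 CPM of H3K4me3 in NPC, against 23.6 and 20.2 CPM in ESC (-1.75 ± 0.22, adjusted p = 2.8e-15 by edgeR's quasi-likelihood test). Mir196a-2, which shares reads with Hoxc9, had 91.4 and 76.6 CPM of JARID2 in NPC, against 272 and 312 CPM in ESC (-1.80 ± 0.22, 5.06e-09). Mir196a-1, which shares none with Hoxb9, had 116 and 107 CPM of SUZ12 in NPC, against 50.1 and 46.3 CPM in ESC, a log2 change of 0.94 ± 0.24 (adjusted p = 0.00105 by edgeR's quasi-likelihood test). MTF2 also rose there (1.09 ± 0.34, 0.0211), and so did H3K27me3, with 617 and 1084 CPM in NPC, against 82.8 and 74.1 CPM in ESC (3.74 ± 1.37, 0.0172). Its H3K4me3 fell (-0.82 ± 0.34, 0.032), and its JARID2 change was 0.10 ± 0.26 (0.944). On the other side of Hoxb9, Hoxb8 had 264 and 261 CPM of SUZ12 in NPC, against 562 and 503 CPM in ESC (-1.28 ± 0.22, 1.03e-07). Its H3K4me3 was 19.9 and 20.4 CPM in NPC, against 19.5 and 15.5 CPM in ESC (0.16 ± 0.17, 0.439), and it is the HoxB neighbour whose H3K4me3 change did not pass. Hoxb13, the next Hox gene beyond Hoxb9 and outside that distance, had 210.4 and 203 CPM of SUZ12 in NPC, against 160 and 143 CPM in ESC (0.19 ± 0.21, 0.63).

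The H3K4me3 change at Hox genes varied with the paralog group. In groups 1 to 5, which act in the hindbrain and neck, 6 of 15 rose and 7 fell (median log2 -0.44). In groups 6 to 8, 1 of 8 rose (Hoxb7, 0.61 ± 0.10) and 6 fell (-0.95). In groups 11 to 13, which act in the sacral and tail region, 0 of 9 rose and 9 fell (-1.99). Groups 9 and 10, with 0 rising, 7 falling and a median of -1.73, thus stood beside groups 11 to 13. The starts used for Hoxa3 and Hoxd3, counted in groups 1 to 5, lie 14303 bp from Hoxa9 and 14230 bp from Hoxd9. For Hoxa7 and Hoxd8 these distances are 8797 and 7726 bp. Hoxa3 and Hoxd3 are thus also among the windows near groups 9 and 10 given above. In HoxB the largest rise was that of Hoxb3 (3.59 ± 0.14). SUZ12 fell at 14 of 15, 7 of 8 and 7 of 9 genes of those 3 sets (medians -0.96, -0.89 and -0.85) and rose at none. JARID2 fell at 7, 6 and 5 of them and rose at none. H3K27me3 had median changes of 1.19, 1.81 and 2.01 over the 3 sets, of which 1 of 15, 0 of 8 and 0 of 9 genes passed, all counts by edgeR's quasi-likelihood test. MTF2 passed at none of the 32 genes in edgeR's test.

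**Figure D4:**
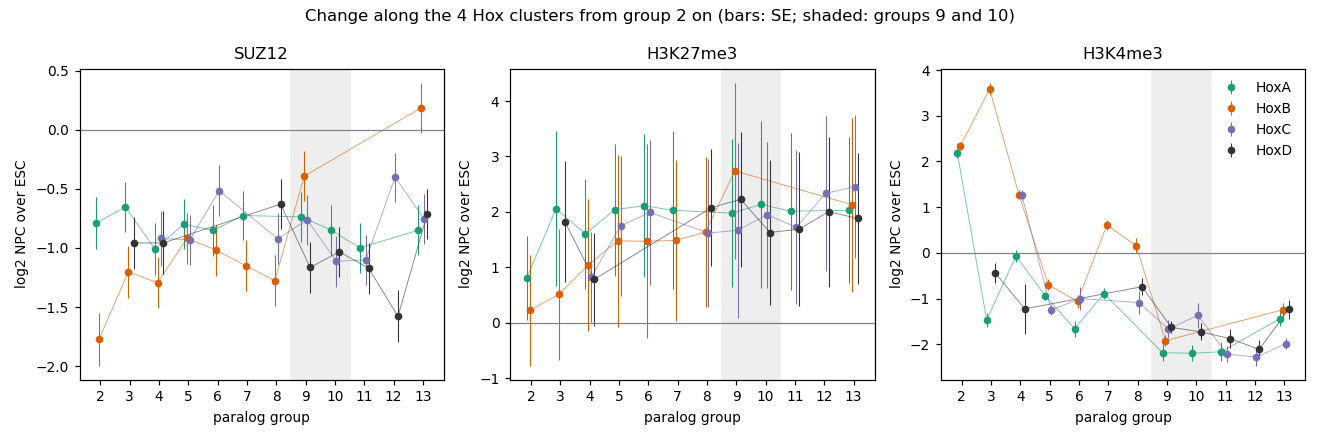
Log2 change of SUZ12, H3K27me3 and H3K4me3 from NPC over ESC at the Hox genes of paralog groups 2 to 13, 1 colour per cluster, with standard errors as bars and groups 9 and 10 shaded. H3K4me3 is above 0 at 6 genes of groups 2 to 8 that passed and below 0 at all genes of groups 9 to 13. Hoxa3 and Hoxd3 are drawn by paralog number, though their windows lie near those of Hoxa9 and Hoxd9.

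Genes that work with or upstream of Hox were read from a list of 15. PBX and MEIS proteins bind DNA together with Hox proteins, CDX factors switch on the posterior Hox genes, and retinoic acid, made by Aldh1a2 and broken down by Cyp26a1, patterns their expression. H3K4me3 rose at 8 and fell at 6 of the 14 tested. Meis1 rose most surely (2.84 ± 0.09, adjusted p = 9.13e-200 by edgeR's quasi-likelihood test), and Meis2 rose by 2.20 ± 0.09 (1.81e-127). SUZ12 fell at 8 of 14 and rose at none, with Meis2 at -2.54 ± 0.24 and Meis1 at -1.92 ± 0.23. JARID2 fell at Meis2 (-1.80 ± 0.28) and Meis1 (-0.94 ± 0.25) alone of 13, and MTF2 fell at 3 of 14, among them Cdx4 (-1.62 ± 0.38) and Pbx3 (-1.68 ± 0.42). H3K27me3 rose at Cdx1 (4.00 ± 0.81) and fell at 3 of 14.

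Markers of other fates were read in H3K4me3, since NPC cultures could hold such cells, and Meis1, Tbx6, Cyp26a1 and the Cdx genes stand in more than 1 list. Of 9 genes of posterior axial progenitors 1 rose and 7 fell, with a summed level of 188 and 173 CPM in NPC, against 382 and 336 CPM in ESC. Mesoderm genes had 156 and 146 CPM in NPC, against 186 and 168 CPM in ESC (1 of 6 rose, 3 fell), and neural crest genes had 154 and 159 CPM in NPC, against 198 and 187 CPM in ESC (2 of 5 rose, 3 fell). Endoderm genes had 338 and 362 CPM in NPC, against 206 and 178 CPM in ESC (2 of 5 rose, 2 fell). The higher sum came from Foxa2 and Cxcr4. Foxa2 had 3.53 and 3.78 times IgG in NPC, against 0.559 and 0.455 times in ESC. Cxcr4 had 3.61 and 4.02 against 1.64 and 1.33. Sox17 had 0.301 and 0.438 against 0.656 and 0.586, and Gata4 0.733 and 0.694 against 1.95 and 2.21. Gata6 had 1.45 and 1.38 against 1.39 and 1.03. In CPM the cell types overlapped at Gata6, whose IgG level was 28.4 CPM in NPC, against 36.9 CPM in ESC. The part of cells of other fates in the values at groups 9 and 10 was not tested.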

How the data were processed

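Mouse CUT&RUN libraries (22) were analysed from 1 table of counts, deposited by the authors as whole reads per start-site window without normalization. Reads were aligned to mm10, and Bowtie2 2.3.4.3 and Picard 2.19 were used, per the submitters' processing notes; for duplicates and the counting program nothing is stated there. Each group follows from the sample titles. All windows entered every fit, with p-values adjusted over all of them. Changes were fitted per antibody (4 libraries) with edgeR 4.0.16 in R 4.3.3 (quasi-likelihood, TMM, minimum count 10), differences of changes over 8 libraries, and enrichment over IgG over all 22. Each standard error is the log2 change over the root of its F statistic. The scripts were tested on simulated data. The alternatives were DESeq2 1.42.0, library totals, TMM from background windows, no filter, a minimum count of 30, a replicate block, 1 fit over all libraries, IgG of both cell types, a log2 fold of at least 2, and each library left out. Added after the data were seen were summed NPC SUZ12 or JARID2 libraries, summed ESC JARID2 libraries, a crossed replicate block, fits of an antibody with IgG alone, and the rule of 2 times IgG.

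The genes named are the 7, windows within 10000 bp, nearest cluster neighbours, up to 2 called cofactors per antibody and the 5 most alike windows. Hoxb3, Hoxb7 and the endoderm genes were named after their values were seen. The genes and lists were chosen with earlier results of these data known. Windows overlap another in 21.9% of cases. Same-numbered replicates of NPC and ESC had deviations that correlated between -0.205 and 0.013, so the numbers were not taken as pairs.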

Additional observations from a re-analysis of the deposited data

How the results depend on the processing

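Counts over all windows moved with the setting. H3K27me3 rose at 1087 of 21863 windows with DESeq2 and at 1676 of 21863 with library totals. It rose at 2609 of 9329 at a minimum count of 30 and at 8054 of 23836 in 1 fit over all libraries. SUZ12 rose at 887 of 3696 windows at a minimum count of 30. In 1 fit over all libraries SUZ12 fell at 1506 of 23836 windows and JARID2 at 0. Counts of the 7 genes that passed moved as follows. For the change between NPC and ESC, SUZ12 had 1 gene at a minimum count of 30, now higher in NPC, 0 in 1 fit over all libraries, 3 with its NPC libraries summed, and 2 to 7 with 1 library left out. JARID2 had 0 in 1 fit over all libraries, 5 with its NPC libraries summed, and 2 to 4 with 1 library left out. H3K27me3 had 7 with DESeq2, 5 with library totals, 7 at a minimum count of 30, 7 in 1 fit over all libraries, and 0 to 7 with 1 library left out. The H3K27me3 change differed from the SUZ12 change at 7 genes with library totals, 7 at a minimum count of 30, and 0 to 7 with 1 library left out. A replicate block gave 1 there, and otherwise left each count at its value (6 for SUZ12, 3 for JARID2, 0 for MTF2 and H3K27me3, 7 for H3K4me3). Same-numbered replicates had deviations that correlated below -0.1 for MTF2 and H3K27me3, and a crossed replicate block gave 1 and 0 genes.

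Above IgG, SUZ12 in NPC had 7 genes with library totals and 7 in a fit with IgG alone, and in ESC 1 to 7 with 1 library left out. JARID2 had 5 in NPC with IgG alone, and in ESC 3 with library totals and 7 with IgG alone. MTF2 had 2 in NPC with IgG of both cell types and 6 with library totals, and in ESC 0 with IgG alone and 1 to 6 with 1 library left out. With IgG alone, H3K27me3 had 0 in NPC and 0 in ESC, and H3K4me3 had 1 in ESC.

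At a minimum count of 30 the log2 change turned positive for SUZ12 at Hoxa9 (0.095), Hoxb9 (0.44) and Hoxc9 (0.069), and for MTF2 at Hoxa9 (0.23), Hoxb9 (0.54), Hoxc9 (0.20), Hoxd9 (0.19) and Hoxa10 (0.21). That filter keeps 3696 SUZ12 and 3915 MTF2 windows, so the scaling rests on fewer windows. With 1 library left out, the MTF2 change ran from -1.32 to 0.30 at Hoxb9, where it was 0.015 without the first ESC library, and from -1.78 to 0.047 at Hoxa9. The MTF2 change at Hoxd10 then ran from -2.36 to -0.62. The JARID2 change ran from -0.13 to 0.26 at Hoxb9 and from -1.19 to -0.16 at Hoxa9. H3K4me3 over IgG in ESC turned at Hoxd10 (0.12, IgG of both cell types) and Hoxa10 (-0.47, library totals). The cause was not tested for the others. MTF2 and H3K27me3 changes are limited by 2 NPC libraries that differ, JARID2 by 28 to 105 counts per NPC window, and enrichment by 1 IgG library with 9 to 45 counts per window.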
